A study of Mus musculus with 36 samples.

Results

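The histone variant H2A.Z was compared between fear-conditioned and naive young mice over all 20213 consensus peaks of the authors' deposited table, which are also all the H2A.Z peaks of the series. The samples were hippocampi of 2.5-month-old C57BL/6J mice. The conditioned group went through a 5 min session with 3 foot shocks of 0.5 mA, each lasting 2 s, their brains being frozen 30 min later, while the naive group was left untrained. Each group had 3 libraries of chromatin immunoprecipitated for H2A.Z and 3 RNA libraries, and the labels do not say whether each came from a separate animal, so p-values measure the spread between these libraries. Libraries of 15.5-month-old mice, conditioned or naive in the same way, entered the RNA fit, the mean RNA per gene and the comparison of ages. The deposited table gives 1 log2 concentration per group and peak (a normalised mean read level), the log2 fold with its p-value and FDR, and the number of libraries in which a peak was called, but no value per library. Every H2A.Z level, fold, FDR and library number below is taken from the authors' deposited table, with folds written as conditioned minus naive. A peak is termed lower or higher when its deposited FDR was under 0.05, and a promoter peak when its middle lay within 1 kb of the nearest gene start. All other peaks are termed distal. Standard errors (SE) were derived from each deposited fold and its p-value.

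H2A.Z replaces the canonical histone H2A in nucleosomes, above all in those that flank the starts of genes. It is deposited by the SRCAP and TIP60-p400 complexes and can be removed by INO80 and ANP32E. In neurons it is exchanged after stimulation and has been studied as a restraint on memory formation. Marks on histone H3 set the context here: H3K4me3 marks gene starts, H3K4me1 enhancers and promoter flanks, H3K27ac active promoters and enhancers, and H3K27me3 chromatin repressed by Polycomb complexes. The table annotates each peak against regions of these 4 marks, whose tissue no label or header states.

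The stretches of DNA directly upstream of 6 genes show what kind of sequence lay under these peaks. Spdl1, which encodes a kinetochore adaptor for dynein, and Stk11ip, which encodes a partner of the kinase LKB1, had promoter peaks with a deposited p-value of 0. Fos and Fosb, which encode subunits of the AP-1 transcription factor, had lower promoter peaks, while those of Btg2, an antiproliferative gene, and Dusp1, a phosphatase gene that switches off MAP kinases, were not called in either direction. Each line gives the 250 bases before the RefSeq start (GRCm38.p6, the mm10 assembly), 5′ to 3′ on the strand of the gene, and all 250 lay inside the peak. Capitals mark the CRE core TGACG and full CRE TGACGTCA, the GC box GGGCGG, the TATA box TATAAA and the E-box CAGCTG on either strand, where overlapping matches run together. The windows are chr11:34833642-34833891 (minus strand) for Spdl1, chr1:75521279-75521528 (plus) for Stk11ip, chr12:85473640-85473889 (plus) for Fos, chr7:19310046-19310295 (minus) for Fosb, chr1:134079156-134079405 (minus) for Btg2 and chr17:26508473-26508722 (minus) for Dusp1.
Spdl1: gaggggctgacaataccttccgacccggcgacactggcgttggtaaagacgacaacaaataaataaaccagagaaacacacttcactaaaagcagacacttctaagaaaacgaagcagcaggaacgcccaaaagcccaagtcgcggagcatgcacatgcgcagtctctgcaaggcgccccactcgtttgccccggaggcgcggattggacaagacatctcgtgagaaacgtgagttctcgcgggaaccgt
Stk11ip: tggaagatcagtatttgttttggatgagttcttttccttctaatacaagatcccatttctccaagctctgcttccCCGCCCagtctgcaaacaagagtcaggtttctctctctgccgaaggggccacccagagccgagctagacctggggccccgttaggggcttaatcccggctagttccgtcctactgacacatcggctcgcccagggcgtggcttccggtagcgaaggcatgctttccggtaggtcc
Fos: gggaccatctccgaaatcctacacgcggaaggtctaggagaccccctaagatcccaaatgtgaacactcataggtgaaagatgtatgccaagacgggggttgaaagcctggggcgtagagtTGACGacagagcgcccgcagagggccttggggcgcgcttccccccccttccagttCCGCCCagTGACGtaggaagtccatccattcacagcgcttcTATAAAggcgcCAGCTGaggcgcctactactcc
Fosb: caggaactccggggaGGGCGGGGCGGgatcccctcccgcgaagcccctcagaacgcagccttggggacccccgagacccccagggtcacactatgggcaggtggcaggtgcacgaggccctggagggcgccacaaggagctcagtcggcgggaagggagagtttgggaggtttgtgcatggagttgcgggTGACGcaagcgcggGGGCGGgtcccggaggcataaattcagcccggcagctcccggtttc
Btg2: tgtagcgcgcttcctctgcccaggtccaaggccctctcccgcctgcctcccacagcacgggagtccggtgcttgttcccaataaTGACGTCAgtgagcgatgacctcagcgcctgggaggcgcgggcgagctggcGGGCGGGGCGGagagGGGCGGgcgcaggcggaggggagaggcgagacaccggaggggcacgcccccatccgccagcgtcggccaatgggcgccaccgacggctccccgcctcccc
Dusp1: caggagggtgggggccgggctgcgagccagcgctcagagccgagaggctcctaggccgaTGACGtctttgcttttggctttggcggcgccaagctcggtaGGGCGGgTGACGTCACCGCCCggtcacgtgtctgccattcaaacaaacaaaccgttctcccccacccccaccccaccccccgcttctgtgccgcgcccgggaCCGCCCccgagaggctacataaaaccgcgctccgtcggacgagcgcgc

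The Spdl1 window held none of these motifs, and that of Stk11ip held 1 GC box. The Fosb window held a CRE core 60 bases before the start and 3 GC boxes. The Fos window held CRE cores that began 129 and 66 bases before the start, a GC box at 74, a TATA box at 33 and an E-box at 22 bases before it. In Btg2 and Dusp1 a full CRE began 166 and 143 bases before the start, respectively. A match describes the letters only. GC content was 54.0% in the Spdl1, 55.6% in the Stk11ip and 58.4% in the Fos window, against 68.8% for Fosb, 68.4% for Dusp1 and 73.2% for Btg2.

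H2A.Z was lower after conditioning at 2660 of the 20213 peaks of the deposited table (13.2%) and higher at 22 (0.109%). The median log2 fold of all peaks was -0.57, a ratio of 0.675, and 81.1% of the folds were negative. Of 12204 promoter peaks, 1775 were lower (14.5%) and 2 higher (0.0164%), and of 8009 distal peaks, 885 were lower (11.1%) and 20 higher. The lower peaks had a median log2 fold of -2.03, and every called fold was at least 1 in size. They were nearest to 2518 genes, 1767 of which had a lower promoter peak. Since the folds as a whole were shifted below 0, the calls were also rebuilt around the median of -0.57: then 741 peaks were lower and 96 higher, so that the share of higher calls rose from 0.820% to 11.5%. Values below are on the deposited scale unless said otherwise, and a peak whose call survives this centring is said to be lower relative to the other peaks.

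Losses were most frequent at peaks with a mean level of 2 to 4 over both young groups. This level includes the conditioned value, so a loss itself moves a peak to a lower bin. Among peaks with a mean concentration of 3 to 4, 26.1% were lower (95% Wilson interval 24.0 to 28.2), and at 2 to 3, 24.2%. The share was 17.6% at 4 to 5, 19.9% at 5 to 6 and 9.98% at 6 to 7. It was 2.86% at 7 to 8 and 0.926% above 8, where 2 of 216 peaks passed. The median fold was -0.88 at a level of 3 to 4, -0.81 at 5 to 6 and -0.31 above 8. Below a level of 1, 0 of 767 peaks were lower, which is where both groups were near their lowest values. By naive concentration alone the lower peaks were like all peaks, with medians of 6.23 and 6.25. Fold and naive concentration had a Spearman rho of -0.153 over 19630 peaks not at a lowest value. The fold is the conditioned minus the naive concentration, so spread in the naive value alone pushes this rho below 0. Neither this rho nor the shares by bin therefore show which starting level loses H2A.Z most often. The intervals cover counting error over peaks, which are not replicates.

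**Figure D1:**
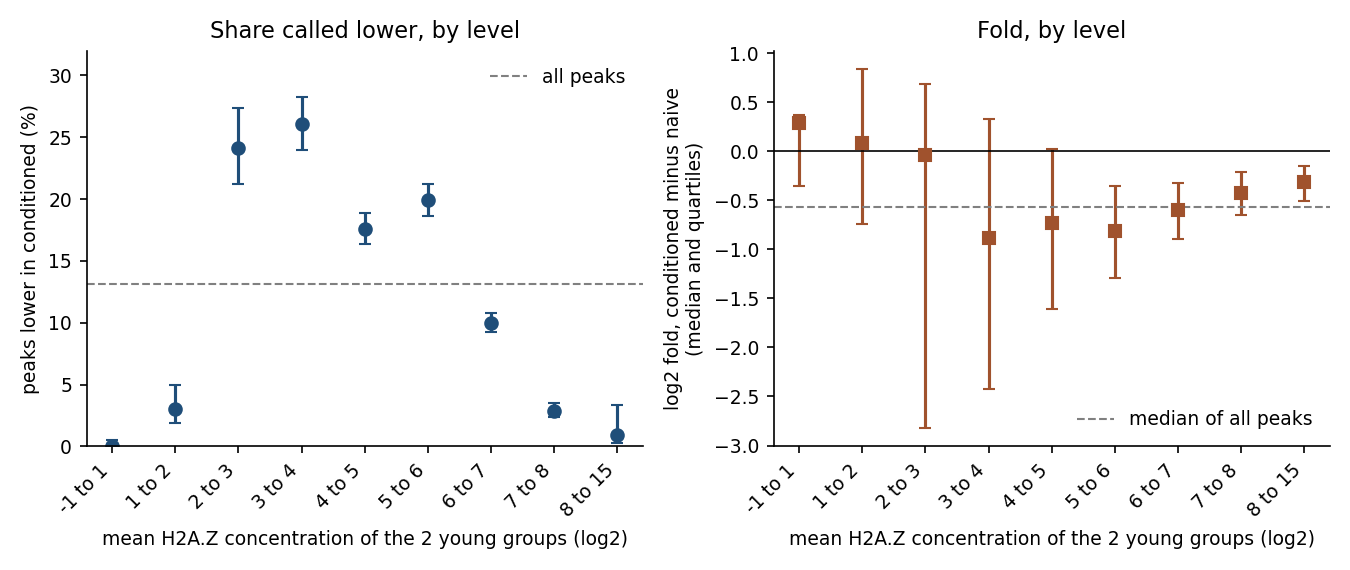
Left, percent of H2A.Z peaks lower in conditioned young mice (points, with 95% Wilson intervals) and right, median log2 fold with quartiles, in bins of the mean log2 concentration of both young groups. The share peaks at 26.1% for levels of 3 to 4 and falls to 0.926% above 8, and the dashed lines mark all peaks (13.2% and -0.57). The level includes the conditioned value, so a loss itself moves a peak to a lower bin.

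Peaks at the lowest concentration of a group were kept apart, because a fold against that value depends on the value itself. It was -0.67 in the naive and -0.38 in the conditioned group, and 583 peaks sat at it in at least 1 group. At 262 peaks both groups were lowest, and 0 of these were called at FDR under 0.05. Of 221 peaks lowest only in the conditioned group 81 were lower (36.7%), and of 100 lowest only in the naive group 8 were higher. Without all 583, 2579 lower and 14 higher peaks were left, so 8 of the 22 higher calls rested on the naive group's lowest value. The deepest folds of this kind were at 2 distal peaks nearest Sfi1 (-8.06, FDR = 5.66e-05, and -7.82, FDR = 0.0626) and 1 nearest Lars2, a mitochondrial tRNA synthetase gene (-7.23, FDR = 0.0170). The largest gains were at 3 neighbouring peaks 1194939 to 1199134 bp from the start of Lrrc4c, a gene of a netrin-G ligand, on chromosome 2. They went from the naive lowest value to conditioned concentrations of 11.68, 8.91 and 7.20 and were called in 0 naive and 3 conditioned libraries. All 3, and also the 2 Sfi1 peaks and the Lars2 peak, overlap regions that the table lists under mapability. So do 5 of the 22 higher, 96 of the 2660 lower (3.61%) and 610 of all 20213 peaks (3.02%). In old mice the 3 Lrrc4c peaks had deposited folds of 11.99, 9.25 and 7.35, so the same shift stood in the old comparison.

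The calls per library were set beside the folds, which rest on the same reads. Where a peak was called in 3 naive and 0 conditioned libraries, 475 of 548 were lower (86.7%), and where it was called in 2 and 0, 509 of 848 (60.0%). Where all 6 libraries had the peak, 576 of 7089 were lower (8.13%). Of all 2660 lower peaks, 1093 were called in no conditioned library, with a median fold of -2.95 and a median naive concentration of 5.48, and 591 were still called in 3, with a median fold of -1.35 and a naive concentration of 7.16. So 1 set of losses left a peak uncalled in the conditioned libraries and another reduced a peak that was still called in 3, with the remaining lower peaks in between. The uncalled set still had a median conditioned concentration of 2.38, and 74 of its 1093 peaks sat at a lowest value.

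The chromatin marks at a peak separated frequent from rare losses. Promoters with H3K4me3 but neither H3K27ac nor H3K27me3 were lower at 331 of 1280 peaks (25.9%, 95% interval 23.5 to 28.3), and active promoters, with H3K4me3 and H3K27ac but no H3K27me3, at 1034 of 6289 (16.4%, 15.5 to 17.4). Bivalent promoters, which carry H3K4me3 and H3K27me3 without H3K27ac, were lower at 214 of 2210 (9.68%, 8.52 to 10.99). Among distal peaks without H3K4me3, those with the enhancer pair H3K4me1 and H3K27ac but no H3K27me3 were lower at 81 of 393 (20.6%, 16.9 to 24.9), those with H3K27me3 at 71 of 814 (8.72%, 6.97 to 10.9), and those with none of the 4 marks at 37 of 2826 (1.31%, 0.951 to 1.80). Distal peaks with H3K4me3 were lower at 596 of 3192 (18.7%). Over all peaks, 8.75% of those with H3K27me3 and 15.3% of those without were lower. These shares are read against 13.2% for all peaks and were not tested against each other.

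The contexts also differ in level, so they were set side by side within bins of the mean young level. As it includes the conditioned value, these bins do not separate level from loss. At a level of 5 to 6, 38.0% of active promoters (342 of 901) and 32.4% of H3K4me3-only promoters (121 of 373) were lower, against 10.6% of bivalent promoters (73 of 688). At 6 to 7 the 3 shares were 12.3%, 11.2% and 5.70%, and at 7 to 8 they were 2.98%, 5.19% and 2.53%, with only 4 lower peaks in the second. The lower share of bivalent promoters was thus present in each bin from 5 to 7 and not distinguishable at 7 to 8. The higher share of H3K4me3-only over active promoters was absent within bins of 4 to 7. The share of enhancer peaks fell from 20.6% to 11.7% when only levels of 4 to 8 were kept, a filter that also removes peaks through their loss.

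Distal peaks with none of the marks had a positive median fold, although more of them were lower (37) than higher (13). The median was 0.29, which is also the fold of peaks lowest in both groups, and 0.35 without the peaks at a lowest value. Of the 22 higher calls 13 lay there, and of the 14 higher calls not at a lowest value 8, beside 27 lower calls. Their naive concentrations were low, with a median of 2.36 against 6.25 for all peaks. With a mean young level of 4 to 5 their median fold was 0.47 over 448 peaks, compared with -0.28 for H3K27me3 peaks and -0.96 for enhancer peaks. It was 0.31 over 115 peaks at 5 to 6 and -0.29 over 21 peaks at 6 to 7. After centring, 36 of these unmarked peaks were higher and 12 lower, while active promoters had 10 higher and 271 lower.

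**Figure D2:**
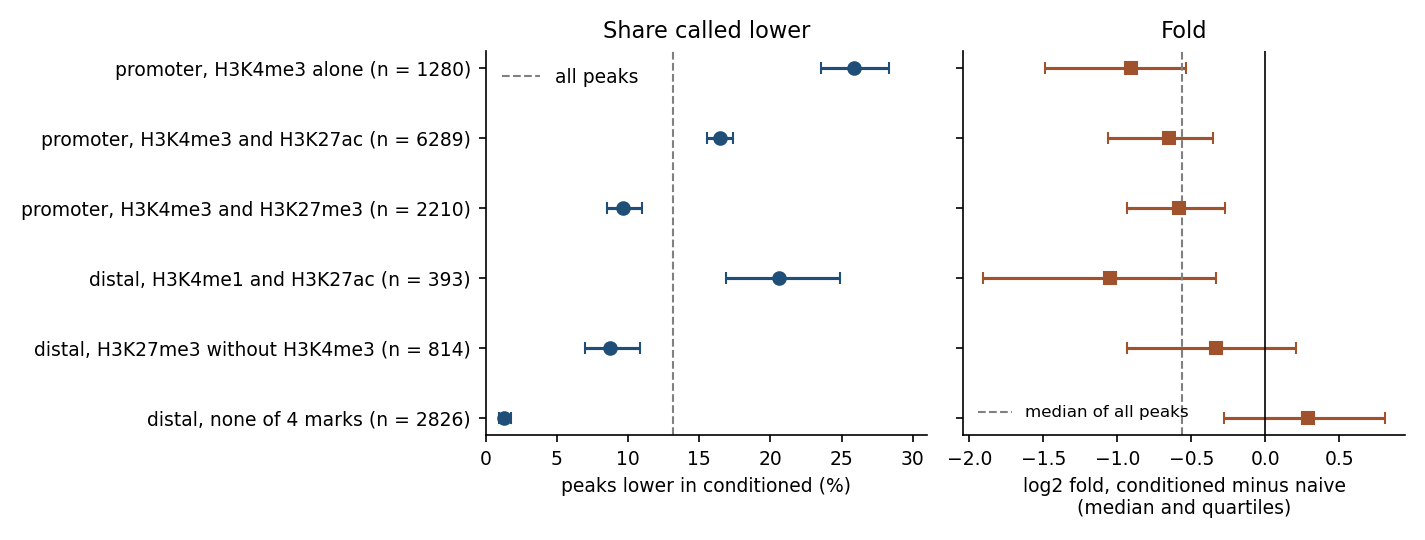
Percent of H2A.Z peaks lower in conditioned young mice with 95% Wilson intervals (left) and median log2 fold with quartiles (right) for 6 combinations of histone marks, n being the number of peaks. H3K4me3-only promoters have the highest share (25.9%) and unmarked distal peaks the lowest (1.31%), and only the latter have a positive median.

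The share of lower peaks varied with the position around gene starts, with no steady trend. Peaks centred 500 to 1000 bp upstream of a start were lower at 66 of 267 (24.7%, 19.9 to 30.2) those 0 to 250 bp upstream at 445 of 2323 (19.2%), but those between, 250 to 500 bp upstream, at 45 of 357 (12.6%, 9.56 to 16.5). Downstream of a start, 930 of 6300 (14.8%) were lower within 250 bp, 224 of 2210 (10.1%) at 250 to 500 bp and 65 of 747 (8.70%) at 500 to 1000 bp. From 1 to 10 kb the shares were 18.8% upstream and 8.64% downstream, and beyond 10 kb 11.7% and 9.94%. The bin at 500 to 1000 bp upstream had a median naive concentration of 6.02, against 6.68 to 6.96 in the other bins within 1 kb. By the table's own annotation, intronic peaks were lower at 10.1% and peaks in 5′ untranslated exons at 16.3%. Of peaks of 217 to 582 bp, the narrowest quintile, 14.8% were lower, and of those of 1278 to 7780 bp, the widest, 8.38%. Losses were spread over the genome, with 11.6% to 16.8% of peaks lower on each of the 19 autosomes.

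**Figure D3:**
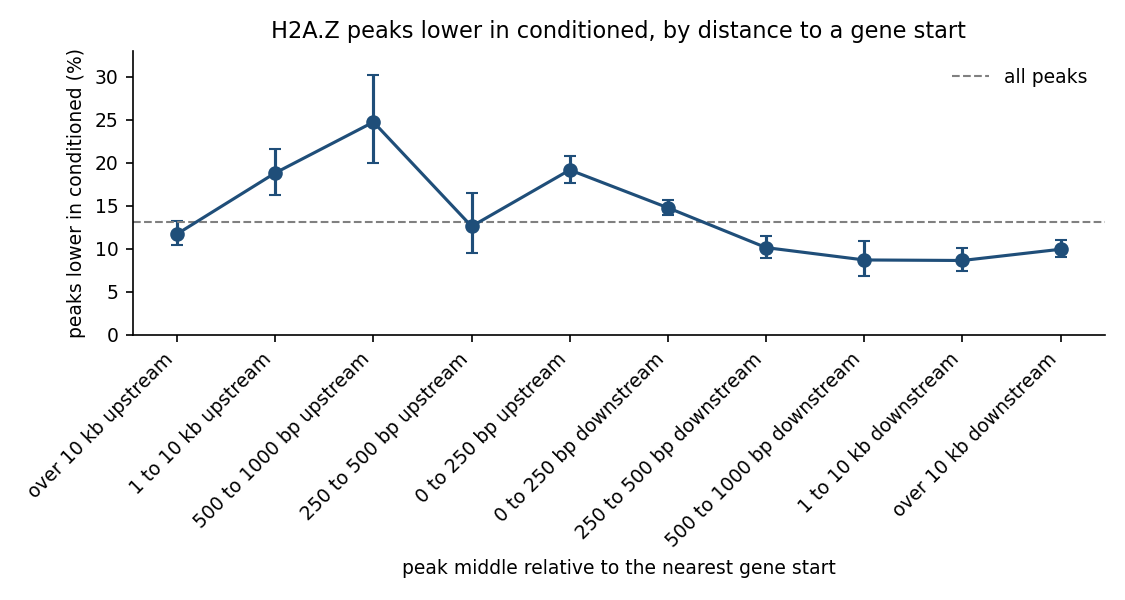
Percent of H2A.Z peaks lower in conditioned young mice (points with 95% Wilson intervals) by the position of the peak's middle relative to the nearest gene start. Upstream bins range from 11.7% to 24.7% and downstream bins from 8.64% to 14.8%, and the dashed line marks all peaks (13.2%).

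The 10 promoters with the deepest losses, leaving out peaks at a lowest value, had deposited folds from -6.59 to -5.31. They were Spdl1, Spop (a ubiquitin ligase adaptor), Zfp551 (a zinc finger protein), Lipe (hormone-sensitive lipase), Ubald1, Ttc38, Tmem63c (a mechanosensitive channel family member), Amer1 (a Wnt pathway regulator), Stk11ip and Rnf181 (a RING ubiquitin ligase). Their naive concentrations of 5.47 to 6.92 stood beside a median of 6.79 over all promoter peaks, while their conditioned concentrations of -0.14 to 1.57 were near the lowest value of -0.38. Not 1 of these peaks was called in a conditioned library, 8 were called in all 3 naive libraries, and all 10 were also lower relative to the other peaks. At Spop (chr11:95414144-95414864, mm10, in the 5′ untranslated exon) the concentration fell by 5.83, from 5.91 to 0.08 (SE 0.83, deposited FDR = 2.80e-09). Zfp551 fell from 5.81 to 0.08 (-5.73, SE 0.87, FDR = 3.86e-08) and Stk11ip from 6.92 to 1.57. Of these 10 peaks, 9 overlapped H3K4me3, 7 H3K27ac and 1, that of Tmem63c, H3K27me3.

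Among all promoter peaks the smallest p-values belonged to Spdl1 and Stk11ip, then to Wdpcp, a gene of ciliogenesis, and Tmub2, both at the conditioned group's lowest value (folds -6.69 and -6.65), and to Ilvbl. Ilvbl kept a measurable level, from 7.35 to 3.38 (-3.97, SE 0.50, FDR = 3.37e-12), though its peak was called in 3 naive and 0 conditioned libraries. The deepest distal losses were at peaks nearest Bcl9, a coactivator of beta-catenin, 70412 bp upstream (-6.81), Garnl3 at 44262 bp upstream (-5.97), E2f2, a cell cycle transcription factor gene, 8293 bp downstream (-5.85), Scrn2 at 3892 bp upstream (-5.50) and Ppap2b, a lipid phosphatase gene, 88422 bp downstream (-5.37). A nearest gene is a position and not a target. Several lower peaks could lie near 1 gene: Sfi1 had 5 of 12, and Fosb, Hmgb1, Creb3l1 and Mycn had 3 each. The 2 Sfi1 peaks named above overlap mapability regions.

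**Figure D4:**
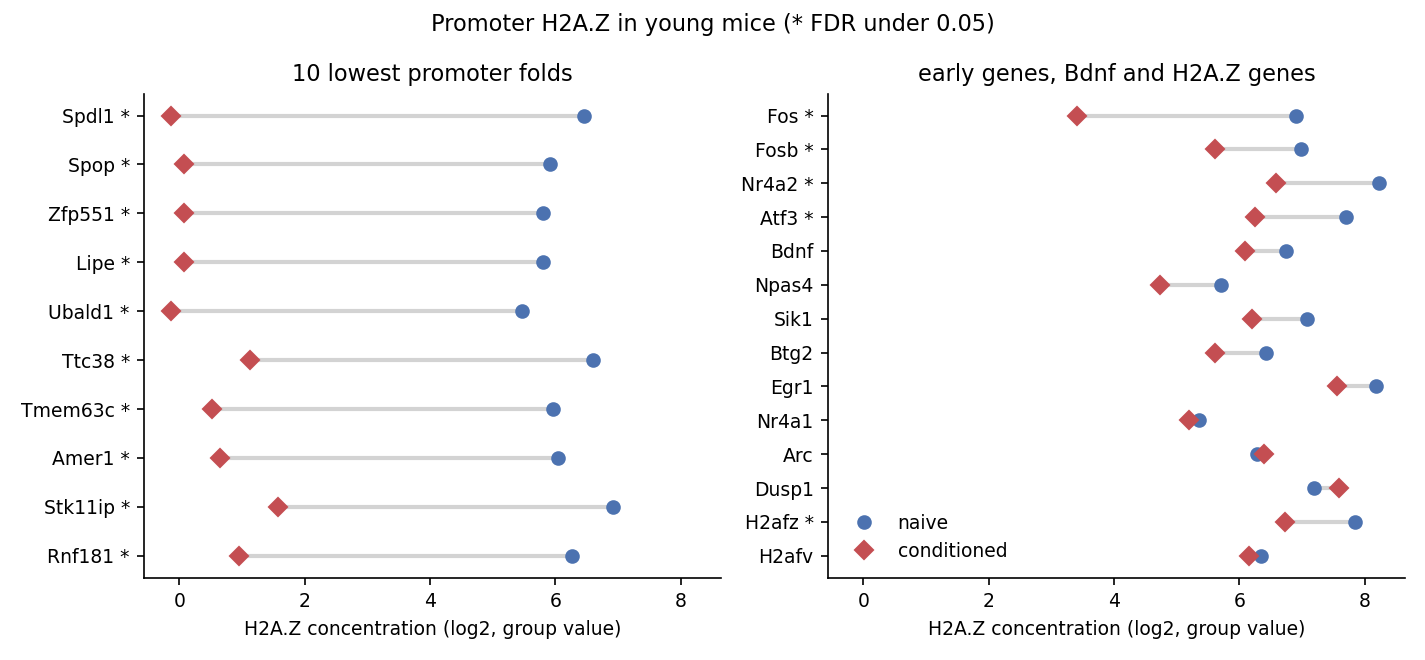
Deposited log2 H2A.Z concentration at promoter peaks, 1 value per group (circles naive, diamonds conditioned, 3 libraries each), for the 10 deepest losses (left) and for the strongest promoter peak of early genes, Bdnf and the H2A.Z genes (right), with asterisks at FDR under 0.05. On the left all conditioned values lie between -0.14 and 1.57, and on the right Fos has the widest gap, from 6.90 to 3.41.

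Gains away from the lowest value were few. They numbered 14, with folds of 1.55 to 3.55, and 12 were distal, 10 exonic and 9 without any of the 4 marks. Naive concentrations there were 0.79 to 4.80, and 11 of the 14 peaks were called in no naive library. Both promoter gains were exonic: Msh4, a meiotic recombination gene, rose from 2.42 to 4.88 (2.47, SE 0.77, FDR = 0.0177), and Ski, a corepressor of TGF-beta signalling, from 4.80 to 6.35 (1.55, SE 0.49, FDR = 0.0180). The 5 largest distal gains were nearest Hcn2, a pacemaker channel gene (1.79 to 5.35), Bcar1, an adhesion scaffold gene (2.01 to 5.47), Prim2, a DNA primase gene (0.79 to 3.64), Clec2h (0.86 to 3.72) and Kank2 (3.11 to 5.85). Their deposited FDR lay between 0.0209 and 0.0454.

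Early activity-regulated genes, the first to be transcribed after neuronal stimulation, had lower H2A.Z at 17.2% of their promoters, near the share of all genes. The strongest promoter peak of each gene was used, and over 11646 genes 1670 were lower (14.3%) with a median of -0.62. Of 34 listed early genes 29 had a promoter peak, 26 of their folds were negative with a median of -0.74, and 5 were lower (17.2%): Fos, Nr4a2, Atf3, Fosb and Klf6. Fos stood out, with 6.90 in naive and 3.41 in conditioned mice (-3.49, SE 0.56, deposited FDR = 1.95e-07), and its promoter peak was called in 3 naive and 0 conditioned libraries. Nr4a2, an orphan nuclear receptor gene, went from 8.22 to 6.58 (-1.64, SE 0.42), Atf3, a stress-induced bZIP factor gene, from 7.70 to 6.25 (-1.45, SE 0.41) and Fosb from 6.98 to 5.61 (-1.38, SE 0.44, FDR = 0.0218). After centring, 1 of the 5, Fos, was still lower.

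Several early genes carried more than 1 peak, with unlike folds. At Fos, 1 of 3 distal peaks, 18420 bp upstream, was lower (-2.81, SE 0.75), while that 12188 bp downstream went from 7.02 to 5.60 without passing (FDR = 0.148). Fosb was lower at 3 of 5 peaks, the others being 1316 bp inside the gene (-2.78) and 17001 bp upstream (-2.80). Bdnf, the gene of a neurotrophin with several promoters, had 3 promoter peaks. The peak 543 bp upstream of a start went from 5.48 to 0.25 (-5.22, SE 0.89, called in 3 naive and 0 conditioned libraries), while the other two had folds of -0.77 and -0.66 and did not pass. A similar pair lay at Sik1, a kinase gene induced by cAMP: its upstream peak, at 728 bp, fell to the lowest value (-5.62), whereas the peak over the start had 7.07 and 6.20 (-0.87, FDR = 0.279). Nr4a1 likewise had an upstream peak, at 505 bp, that fell to the lowest value (-5.37) and a peak over the start with 5.35 and 5.19 (-0.16, positive after centring). These upstream calls at Sik1 and Nr4a1 belong to the peaks at a lowest value.

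At the starts of other early genes no change passed the test. Dusp1 had 7.20 in naive and 7.58 in conditioned mice (0.39, SE 0.50, FDR = 0.656), and Arc, a gene of synaptic plasticity, 6.28 and 6.40 (0.12, SE 0.40). Egr1 had -0.62 (SE 0.42), Npas4 -0.97 (SE 0.57) and Btg2 -0.82 (SE 0.45), none of which passed at FDR under 0.05. Junb had no promoter peak but 1 on either side of the window, with folds of -0.24 and -0.94. The 95% interval of the Dusp1 fold ran from -0.60 to 1.37, and that of Btg2 from -1.70 to 0.06.

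The genes of H2A.Z itself and of the complexes that move it were examined next. Of 22 listed genes 16 had a promoter peak and 3 were lower (18.8%), near the 14.3% of all genes with a promoter peak. Vps72, a gene of an H2A.Z-binding subunit, went from 6.42 to 4.56 (-1.86, SE 0.51, FDR = 0.00484), Dmap1, a TIP60-p400 and SRCAP subunit, from 6.59 to 4.92 (-1.67, SE 0.48), and H2afz, the main H2A.Z gene, from 7.85 to 6.72 (-1.13, SE 0.41, FDR = 0.0449). H2afv, the second H2A.Z gene, had 6.35 and 6.15 (-0.20, SE 0.49). None of the 3 calls was kept after centring. H2afz also had a lower distal peak 111252 bp upstream (-2.22, SE 0.71).

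Lists of neuronal and developmental genes had few losses or none. The share over all genes with a promoter peak was 14.3%. Of 24 synapse and memory genes with a promoter peak, 0 were lower at FDR under 0.05 and the median fold was -0.28. The highest fold among them was at Camk2b, a kinase subunit gene (6.68 and 7.37, FDR = 0.372). Of 28 developmental transcription factor genes, all with H3K27me3 at the promoter, 0 were lower, the median was -0.11, and 15 of 28 folds were negative, from -1.18 at Tbx15 to 0.94. Their median naive concentration was 5.13, against 6.83 for all genes. Chromatin regulators were lower at 2 of 32, Rest, a repressor of neuronal genes (-1.68, SE 0.52), and Eed, a Polycomb subunit gene (-1.40, SE 0.41). Centring moves every fold up, so it could add no lower promoter to the 2 former lists. Neither Rest nor Eed was lower after centring.

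Housekeeping lists matched the share over all genes with a promoter peak, 14.3%, or lay near it. Oxidative phosphorylation genes were lower at 4 of 26 (15.4%), with Cox6b1, a cytochrome oxidase subunit gene, at 5.58 and 1.33 (-4.25, SE 1.11, FDR = 0.00294) and Ndufa2, a complex I subunit gene, at 6.51 and 4.10 (-2.40, SE 0.52), and these 2 kept their call after centring. Ribosomal protein genes were lower at 3 of 27 (11.1%). Of these, Rpl7 fell to the lowest value (from 5.23, called in 2 naive and 0 conditioned libraries), and Rplp1 went from 6.77 to 5.33 (-1.44, SE 0.45, FDR = 0.0164). Later effector genes of neuronal activity were lower at 3 of 17 (17.6%), also near that share. They were Rgs2, a G protein regulator gene (-1.95, SE 0.60), Ptgs2, the cyclooxygenase-2 gene (-1.35, SE 0.47), and Crem, a CREB family gene (-1.32, SE 0.42). Single members were lower among heat shock genes (1 of 13, Hspb1, -2.47), clock genes (1 of 18, Rorb, -2.52) and glucocorticoid-responsive genes (1 of 18, Cdkn1a, -1.11, FDR = 0.0499). The same held for immature neuron markers (1 of 9, Neurod1, -2.42) and choroid plexus markers (1 of 3, Prlr, -2.33). Markers of oligodendrocytes (6 with a peak), astrocytes (5), microglia (1), endothelium (4), interneurons (8), pyramidal neurons (9) and granule cells (8) had 0 lower promoters at FDR under 0.05. With so few genes per list, a share of 14.3% would also give few or none.

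The tissue label was checked on RNA. All 8 listed markers of hippocampal neurons were expressed, at mean levels of 66.1 to 3986 counts scaled to library size (CPM), and their summed level was 7069 to 7586 CPM in naive and 7501 to 8180 CPM in conditioned libraries. Summed choroid plexus markers ran from 195 to 3094 CPM in naive and from 60.4 to 2177 CPM in conditioned libraries. Summed oligodendrocyte markers were 2095 to 2856 CPM in naive and 1785 to 2409 CPM in conditioned libraries. Of the 14 listed oligodendrocyte genes 6 had a promoter peak, and only these are counted here. Among them, 0 had a positive RNA log2 fold and 3 had an unadjusted edgeR p under 0.05. Over 10817 genes with a promoter peak and RNA counts, these shares were 49.4% and 7.02%. The part of either cell type in the H2A.Z results was not tested. In whole tissue, fewer cells of a type and less H2A.Z per cell cannot be told apart.

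Among genes tested in RNA, H2A.Z loss was more frequent at weakly expressed ones. Genes were divided into quintiles by mean RNA over young and old libraries, and promoters were lower in 21.9% of the lowest quintile (473 of 2164), 19.0%, 13.8% and 9.89% of the next ones and 7.39% of the highest (160 of 2164). The median fold went from -0.82 to -0.44. The trend did not extend to the 829 genes with a promoter peak that were not tested in RNA: 13.5% were lower, with a median fold of -0.58. Across the 10817 genes with both values, fold and mean RNA had a Spearman rho of 0.268, given as a description since genes are not independent. The quintiles also differ in level, with median naive concentrations of 6.46 in the lowest and 7.02 in the highest, and in marks, with H3K27ac at 46.2% and 83.4% of promoters.

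RNA folds of genes that lost promoter H2A.Z were centred near 0. In 10817 genes with a promoter peak and RNA counts, H2A.Z fold and RNA log2 fold had a Spearman rho of 0.0155. The median RNA log2 fold was -0.01 for 1558 genes with a lower promoter and 0.00 for 9258 genes without a call, and 47.1% and 49.8% of them, respectively, were positive. Genes with an unadjusted RNA p under 0.05 made up 5.97% of the former and 7.19% of the latter, against 7.02% of all genes with a promoter peak. For the 426 genes whose lower peak was called in no conditioned library, the median RNA log2 fold was also -0.01. Of the 10 promoters with the deepest losses 9 genes were tested in RNA, and 0 passed by edgeR, adjusted or at an unadjusted p under 0.05. Their RNA log2 folds lay between -0.31 and 0.17, and the smallest edgeR adjusted p was 0.750, at Stk11ip.

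RNA itself changed at 4 of 14405 genes (0.0278%), all higher in conditioned mice, by edgeR's quasi-likelihood test at an adjusted p under 0.05. At an unadjusted p under 0.05 there were 955 (6.63%), 0 were lower after adjustment, and DESeq2 gave 6 higher and 1 lower. The count changed when 1 library was left out: 0 were called without conditioned library 73 or naive library 83, 2 without conditioned 77 or naive 81, 5 without conditioned 75, and 13 higher and 3 lower without naive 79. RNA totals were 9410843 to 13350561 counts per young library. Genes with no overlap between the libraries of both groups made up 12.8% of all.

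Fosb, Dusp1, Sik1 and Btg2 were these 4 genes, and their promoter H2A.Z values were unlike. Fosb RNA was 7.63, 6.95 and 6.20 CPM in naive and 18.5, 12.7 and 15.9 CPM in conditioned libraries (log2 fold 1.17, SE 0.14, edgeR adjusted p = 0.00492), beside a lower H2A.Z promoter. Dusp1 RNA was 9.75, 7.03 and 7.94 CPM in naive and 17.9, 17.0 and 17.5 CPM in conditioned libraries (log2 fold 1.08, SE 0.14, edgeR adjusted p = 0.00492), beside a promoter fold of 0.39 that did not pass. Neither gene's groups overlapped. Sik1 RNA averaged 13.1 ± 0.601 and 23.1 ± 2.68 CPM (SD, n = 3 each; edgeR adjusted p = 0.0414) and Btg2 RNA 14.9 ± 1.06 and 25.3 ± 3.78 CPM (edgeR adjusted p = 0.0358), with promoter folds of -0.87 and -0.82 that did not pass.

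Fos had the deepest loss among the strongest promoter peaks of early genes, and its RNA difference did not pass the test. Its RNA was 10.2, 2.44 and 2.81 CPM in naive and 20.7, 14.7 and 24.6 CPM in conditioned libraries (log2 fold 2.00, SE 0.36, edgeR adjusted p = 0.10). Naive library 79 was the highest of its group here, as it was for Arc (136, 59.9 and 55.0 CPM) and Egr1 (131, 64.4 and 74.4 CPM). The same held for Npas4 (10.5, 3.51 and 6.37 CPM) and Nr4a1 (68.9, 25.6 and 28.7 CPM). For these, library 79 overlapped the conditioned libraries, whose lowest values were 9.58 and 65.8 CPM, respectively. Neither gene passed (edgeR adjusted p = 0.730 for both). Chromatin and RNA came from different libraries, so the H2A.Z value of that mouse or pool is not known. H2afz RNA was 71.9 ± 2.31 and 81.2 ± 1.35 CPM (SD, n = 3 each; edgeR adjusted p = 0.730).

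**Figure D5:**
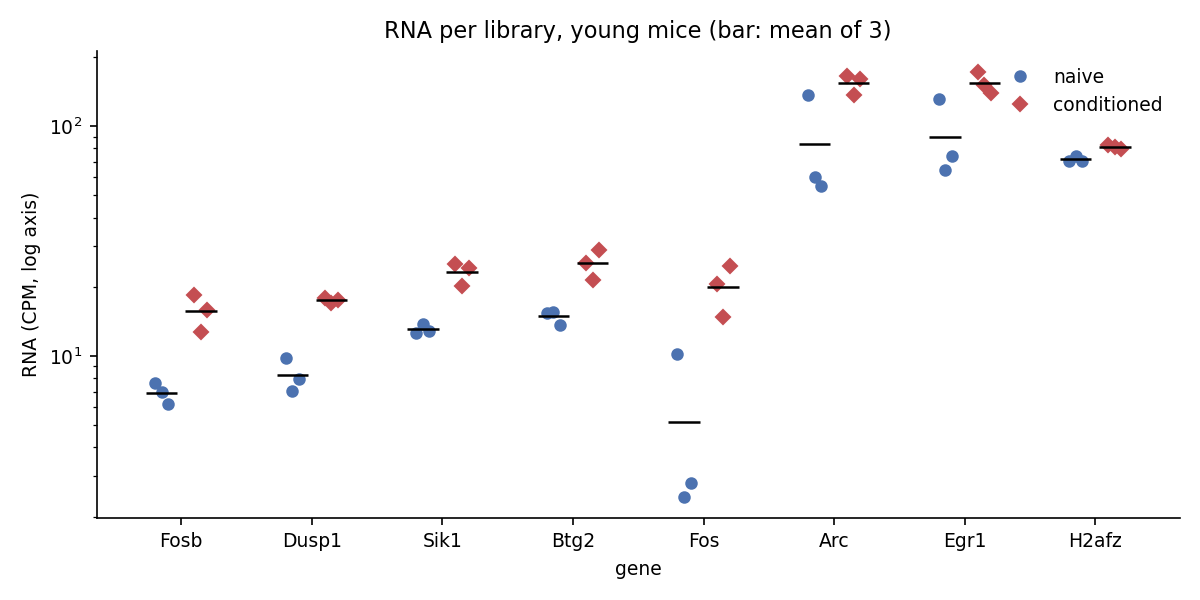
RNA in CPM (log axis) for each young library, circles naive and diamonds conditioned, with bars at the mean of 3. The groups are apart for all 8 plotted genes, as they are for 12.8% of all tested genes. Only Fosb, Dusp1, Sik1 and Btg2 passed the adjusted test, and 1 naive library lies near the conditioned ones for Arc and Egr1. Npas4 and Nr4a1, whose groups overlap, are not plotted.

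Promoters that lost H2A.Z were somewhat poorer in CpG. Of 11646 strongest promoter peaks 8149 held a RefSeq start of the same gene, whose window of 300 bases (250 before, 50 after) was read. The observed to expected CpG ratio had a median of 0.742 in 1202 windows with a lower peak and 0.815 in 6946 without a call, and 0.646 in the 322 whose lower peak was called in no conditioned library. Over all 32851 RefSeq promoters of the table it was 0.384. Median GC content was 59.3% and 64.7%. At a mean young level of 5 to 7, which includes the conditioned value, the ratios were 0.773 and 0.792, a smaller gap. GC boxes were in 66.2% of windows with a lower peak and 75.3% of those without a call (35.7% of all RefSeq promoters), and at levels of 5 to 7 in 67.8% and 73.9%. CRE cores were in 34.0% and 32.97% (20.8% of all), full CREs in 3.66% and 3.40% (1.79%), E-boxes in 14.1% and 14.6% (16.3%), TATA boxes in 4.91% and 5.25% (13.6%), AP-1 sites TGANTCA in 2.58% and 3.47% (7.81%), and NRF1 sites in 2.91% and 2.32% (0.971%). Matches were counted on both strands.

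The young response was set beside that of 15.5-month-old mice, conditioned and naive in the same way, whose libraries are separate. Old mice had 2150 lower (10.6%) and 8 higher peaks (0.0396%), and 160 peaks were lower at both ages, which is 6.02% of the young and 7.44% of the old set. Of the 2660 peaks lower in young mice, 2653 had a negative fold in old mice too (99.7%), as had 87.3% of all peaks, and their median old fold was -1.42 against -0.93 for all peaks. In bins of the mean young level, 2.86% of peaks at 7 to 8 were lower in young and 38.5% in old mice, and at 3 to 4, 26.1% and 1.04%. These bins contain the young conditioned value and no old value, so young losses themselves move peaks to lower bins. The shares by bin therefore cannot be compared between ages. Old distal peaks were lower at 2.62%. The difference between both folds, tested peak by peak with implied SEs, passed at 0 of 20213 peaks (0.0% after Benjamini-Hochberg adjustment). At an unadjusted p under 0.05 there were 331 (1.64%), and the smallest adjusted p was 1.00. That share is below the threshold itself, so 0 calls do not show that the folds were alike at both ages. Median SEs were 0.53 in young and 0.78 in old mice. At Fos the old fold was -1.49 (FDR = 0.380), and the difference from the young fold had an unadjusted p of 0.135 in this test across all peaks. The 10 deepest young promoters had old folds of -2.45 to -1.08, none past FDR 0.05.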

How the data were processed

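H2A.Z peaks of 6 young immunoprecipitated libraries (3 naive, 3 conditioned) and RNA of 6 young and 6 old libraries were analysed, with groups taken from the labels. The deposited old values used for the age comparison rest on 6 old immunoprecipitated libraries (3 naive, 3 conditioned). The H2A.Z table was deposited by the authors on mm10 with log2 folds, log2 concentrations, p-values and FDR per peak, and its columns ending in T were read as conditioned by exclusion. Per the submitters' processing notes the tools include DiffBind 1.12.2 and MACS2 2.0.10, edgeR 3.8.6, HTSeq 0.6.1p2, Bowtie2 2.2.1 and TopHat. How H2A.Z reads were scaled is not stated by any label or header. The FDR equals the Benjamini-Hochberg adjustment of the deposited p-values, and the young fold is the difference of the deposited concentrations. For RNA, the authors deposited raw read counts per gene and library.

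An SE was the fold divided by the normal quantile of its p-value, and was not printed where p was listed at 0. A mark was taken as present where the table records an overlap, in place of a distance of 0 bp, because its distance column is measured between edges. Folds were centred on their median with these SEs. The age difference was a normal test on both folds. It was checked on simulated data with 16-fold differences only, which does not show whether smaller ones would be found. Old folds carry a constant offset against old concentrations. RNA counts were fitted in R 4.3.3 with edgeR 4.0.16 (TMM, filterByExpr, 1 quasi-likelihood fit of the 4 groups, prior count 2), and p-values were adjusted over all tested genes. DESeq2 1.42.0 was an alternative. This fit was also tested on simulated data. Shares carry 95% Wilson intervals. Python 3.11.15 and pandas 2.3.3 were used.

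Named peaks are the 10 lowest and 10 highest promoter folds and the 5 lowest and 5 highest distal folds past FDR 0.05 and not at a lowest value, the 3 lowest and 3 highest folds at a lowest value, the 5 smallest promoter p-values, up to 4 members per gene list by p-value, and a fixed set of activity and H2A.Z genes. Klf6 and genes near several lower peaks were named after their values were seen. The peaks, lists and rules were chosen with earlier results of these data known. Input libraries were not analysed here. Some genes that the rule would name are not reported here.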

Additional observations from a re-analysis of the deposited data

How the results depend on the processing

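The median fold was -0.59 to -0.57 without peaks at a lowest value, with peaks called in at least 2 libraries and from the deposited concentrations, and centring sets it to 0 by construction. Lower peaks outnumbered higher ones among all peaks, at promoters and at distal peaks under every alternative run, but not among unmarked distal peaks after centring (12 lower, 36 higher). Counts depended on the threshold and the centring. At FDR under 0.01, 1311 peaks were lower and 6 higher (877 and 0 at promoters, 434 and 6 at distal peaks), and at FDR under 0.1, 45 were higher, 42 of them distal. Centred on the median, 741 were lower and 96 higher (461 and 33 at promoters, 280 and 63 at distal peaks). Of 62 named called peaks, 37 kept their call. No sign could change, because every called fold was at least 1 in size and the median was -0.57. Centring takes positive folds further from 0, and all 14 higher calls not at a lowest value were kept. The uncalled folds of H2afv and Nr4a1 at the start turned positive, to 0.37 and 0.41. Without peaks at a lowest value 14 were higher, 12 of them distal. Other alternatives (a minimum fold, the number of calling libraries, autosomes only, promoter windows of 500 and 5000 bp, a mark within 1 kb, and, added after seeing the data, no mapability regions) kept each count and share close to its value (counts within 1.5 times).

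At FDR under 0.01 the shares lower were 13.4% (H3K4me3-only promoters), 8.46% (active promoters), 3.85% (bivalent promoters), 8.65% (enhancer pair), 4.05% (distal H3K27me3) and 0.460% (unmarked). With mean young levels of 4 to 8 only, an alternative added after seeing the data, they were 23.0%, 15.4%, 8.50%, 11.7%, 4.89% and 1.87%. That level includes the conditioned value, so the filter also removes peaks through their loss.

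RNA calls were 2 with upper-quartile factors, 8 without a filter and 0 with the 6 young libraries only, all higher, and DESeq2 gave 1 lower. Leaving out 1 young library gave 0 to 13 higher and 0 to 3 lower. The cause was not tested. The age difference kept 0 calls under its 3 alternatives. No paired analysis was possible because the groups compared share no replicate number, and leaving out H2A.Z libraries was not run because the table holds group values. Depth of the H2A.Z libraries is unknown here, which limits statements on peaks of low level.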
